A study of Rattus norvegicus and Bos taurus with 12 samples.

Results

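The genes described here code for proteins of the Z-disc, the M-band, the thin filament pointed end, the costamere and the intercalated disc, the scaffolds that anchor the contractile filaments of a heart muscle cell. A list of 38 members was searched by gene symbol, in any letter case, in both expression tables of the study. Of the 38 members, 30 stood among the 7052 genes listed for adult rat ventricular myocytes (ARVM) and 9 among the 2115 genes listed for bovine cardiac fibroblasts (Cfib). Both tables listed Ankrd1, Pdlim3, Cryab, Sgcb, Sgcd and Dsc2. The remaining members fell into 24 listed for ARVM only, 3 listed for Cfib only (DSG2, PDLIM5 and DMD) and 5 listed in neither table (Tcap, Ttn, Lmod3, Xirp1 and Dsp). Each table holds only genes that the authors had selected for a difference between its groups, so a member without an entry has no value here and nothing can be said of its change.

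The rat experiment compared 3 libraries of freshly isolated ARVM from healthy Sprague Dawley rats, named con4, con5 and con6, with 3 libraries of ARVM kept for 7 days in PH-CM, named ha2, ha209 and ha211. PH-CM is serum-free medium conditioned by right ventricular Cfib of neonatal calves in which reduced atmospheric pressure had induced pulmonary hypertension (PH). The bovine experiment compared Cfib from 3 PH calves with Cfib from 3 control calves (CO), all grown in culture at low passage. In the sample labels, the treatment is instead given as serum from cows of low or high altitude. Freshly isolated cells had not been cultured, and no ARVM cultured without PH-CM were analysed here, so PH-CM and the 7 days in culture cannot be told apart. Whether each ARVM library came from a separate rat is not given, and p-values measure the spread between libraries.

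In striated muscle, Z-discs crosslink the thin filaments of neighboring sarcomeres through α-actinin, and M-bands crosslink the thick filaments through myomesins. Intermediate filaments of desmin and the costameres tie the outermost Z-discs to the cell membrane, where vinculin and the dystrophin-sarcoglycan complex link actin to the extracellular matrix. Intercalated discs join heart muscle cells end to end by cadherin junctions, desmosomes and the gap junctions through which the action potential passes. Several Z-disc proteins also act in the nucleus as stress-responsive regulators.

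ARVM values are normalized counts, that is read counts divided by a size factor per library and not by gene length, so levels are compared between groups and not between genes. Reads on listed genes ran from 12122463 to 18842171 per library. Markers of heart muscle cells, fixed as a list of 11 genes, were all listed, and each was lower in PH-CM. Their summed level ran from 1832350 to 1869210 normalized counts in freshly isolated ARVM and from 156128 to 192179 in PH-CM ARVM, 10.6-fold lower on average. All 10 fibroblast markers were higher in PH-CM, with sums from 1533 to 2062 normalized counts in freshly isolated ARVM and from 87479 to 130631 in PH-CM ARVM. Of 6 leukocyte markers 5 were listed, all higher, and their sum went from between 152 and 195 to between 6300 and 9459 normalized counts. All 6 endothelial markers were lower, of 5 smooth muscle and pericyte markers 3 were higher and 2 lower, and the red cell markers Hba1 and Hbb were at 0 in every PH-CM library. The part of these other cell types in the changes described next was not tested, and in bulk RNA fewer heart muscle cells and less RNA per cell cannot be told apart.

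After 7 days in PH-CM, 26 of the 30 listed members were lower and 4 were higher than in freshly isolated ARVM. The members that rose were Gja1, Vcl, Dsc2 and Cdh2, which code for connexin 43, vinculin, desmocollin 2 and N-cadherin. The median log2 fold change of the members was −1.44, against 0.37 over all listed genes, and the members ranged from −3.30 for Myoz2 to 1.11 for Gja1. All 30 passed the threshold of an adjusted p of 0.05 in limma, which 97.6% of the 7052 listed genes also did, so passing the threshold does not set the members apart. The count models edgeR and DESeq2 likewise called all 30, and 96.6% and 94.6% of the listed genes. Higher calls made up 53.9% and lower calls 43.7% of the listed genes, beside 4 and 26 of the 30 members. Calls of at least 2-fold were lower in 20 members and higher in 1, whereas 16% of listed genes were called at least 2-fold lower and 32.3% at least 2-fold higher. In each of the 30 members every library of one group lay above every library of the other, as in 100% of the listed genes, which the authors had selected for a difference between groups.

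**Figure D1:**
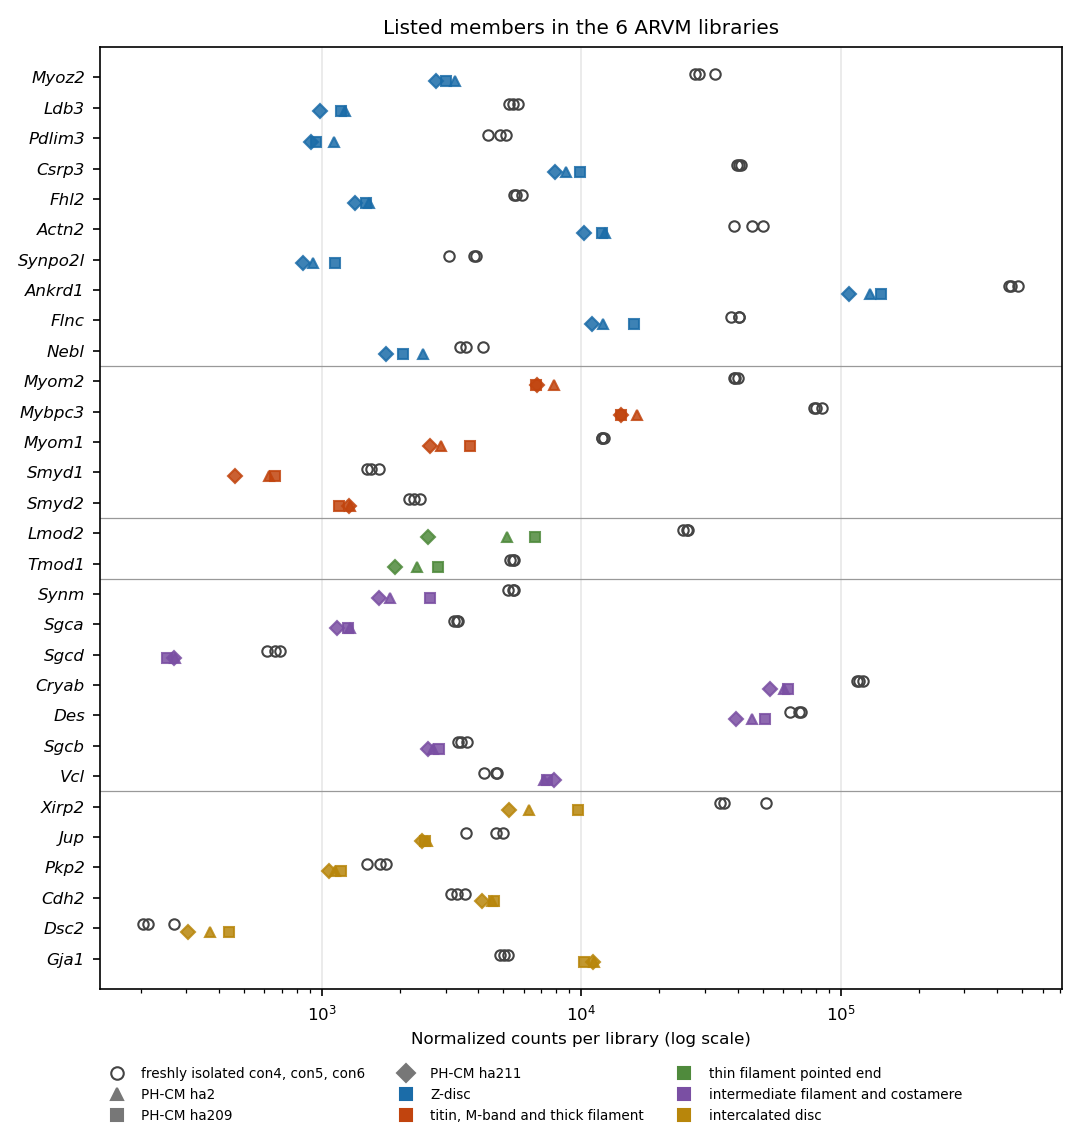
Normalized counts of the 30 listed members in each ARVM library, on a log axis, with freshly isolated libraries as open circles and the 3 PH-CM libraries as filled symbols colored by structure. The groups do not overlap in any member, and the PH-CM symbols lie to the right of the circles only for Vcl, Cdh2, Dsc2 and Gja1.

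By structure, the members moved one way in the sarcomere and both ways at the membrane. Of 12 Z-disc members 10 were listed and all fell, with a median log2 fold change of −1.96. Of 6 members of titin, the M-band and the thick filament with their methyltransferases 5 were listed and all fell, with a median of −1.99. Both listed members of the thin filament pointed end, of 3 in all, fell, with a median of −1.87. Of 8 intermediate filament and costamere members 7 were listed, of which 6 fell and 1 rose, with a median of −1.01. Of 9 intercalated disc members 6 were listed, of which 3 fell and 3 rose, with a median of −0.068.

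**Figure D2:**
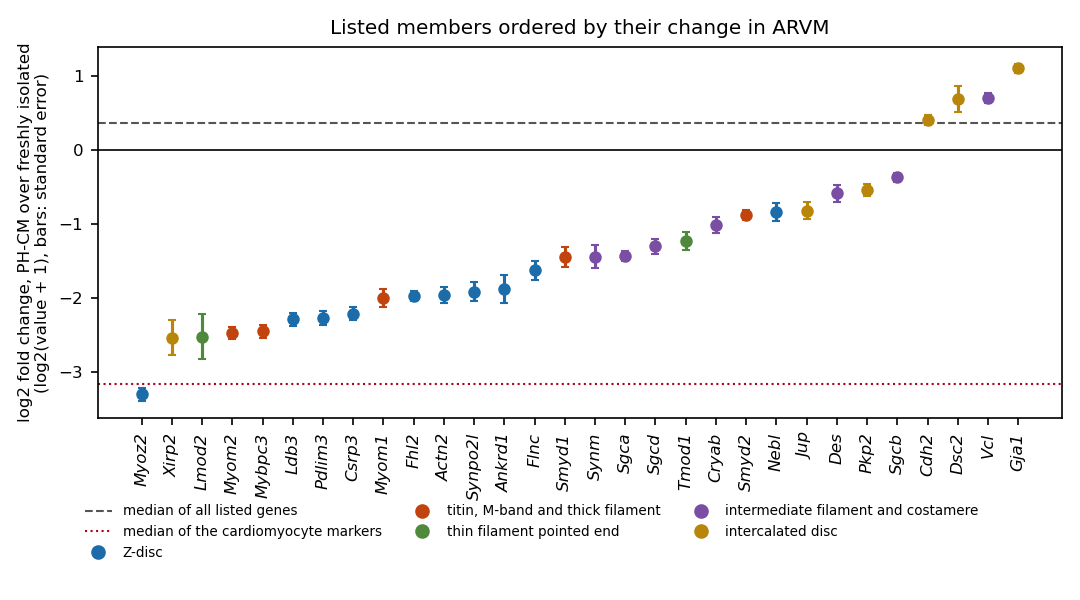
Log2 fold change of each listed member in PH-CM over freshly isolated ARVM from limma on log2(value + 1), with its standard error, ordered by size and colored by structure. Z-disc, M-band and pointed end members lie between −3.30 and −0.83, and the intercalated disc spans −2.53 to 1.11, while the lines mark the medians of all listed genes (0.37) and of the 11 cardiomyocyte markers (−3.15).

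The 250 bases before the transcription start were read from RefSeq promoters of the rat GRCr8 assembly for 30 of the 38 members. No promoter entry was matched for Csrp3, Tcap, Ankrd1, Pdlim3, Myom2, Cryab, Pkp2 and Cdh2. The reads themselves had been aligned to the older rn6 assembly. MEF2 sites, to which the muscle transcription factors of the MEF2 family bind, were found on either strand in 7 of 30 promoters (23.3%: Myoz2, Fhl2, Synpo2l, Ttn, Mybpc3, Xirp1 and Xirp2) and in 3.07% of all 27457 promoters. CArG boxes, the binding motif of serum response factor, were found on either strand in 4 of 30 (13.3%: Ldb3, Nebl, Fhl2 and Dmd) and in 1.50% of all. CATTCC, the core of TEAD sites, was found on either strand in 3 of 30 (10%: Flnc, Fhl2 and Vcl) and in 11.8% of all. TATAAA, searched on the sense strand, was in 0 of 30 members and in 8.38% of all promoters. These shares are descriptions of letters in 1 window per gene and no test was made of them. They include Ttn, Xirp1 and Dmd, which were not listed for ARVM and have no change there. Whether the motifs bear on the changes was not tested. Among members with a promoter entry, MEF2 sites occurred in 5 of the 20 that fell and in 0 of the 3 that rose. CArG boxes occurred in 3 of the 20 and 0 of the 3, and CATTCC in 2 of the 20 and 1 of the 3. With only 3 promoters of members that rose, these counts cannot show whether a motif goes with the direction.

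Shown here, 5′ to 3′ on the strand of the gene, are the promoters of 4 fallen members that hold a MEF2 site and, for comparison, that of Gja1, the member that rose most, in which none of the 4 motifs was found. Capitals mark the motif matches, and the last base of each line is the base before the start.
Myoz2 promoter, chr2:213852779-213853028 (- strand): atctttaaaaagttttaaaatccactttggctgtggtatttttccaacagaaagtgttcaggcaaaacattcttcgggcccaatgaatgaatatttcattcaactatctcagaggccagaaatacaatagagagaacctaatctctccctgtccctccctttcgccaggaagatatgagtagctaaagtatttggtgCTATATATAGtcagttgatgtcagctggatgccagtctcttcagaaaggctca
Fhl2 promoter, chr9:52954541-52954790 (- strand): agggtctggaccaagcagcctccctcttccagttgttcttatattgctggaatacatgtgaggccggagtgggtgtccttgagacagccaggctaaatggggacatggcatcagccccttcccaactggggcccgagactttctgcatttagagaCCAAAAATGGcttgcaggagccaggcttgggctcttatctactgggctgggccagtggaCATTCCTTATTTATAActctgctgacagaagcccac
Mybpc3 promoter, chr3:97550811-97551060 (+ strand): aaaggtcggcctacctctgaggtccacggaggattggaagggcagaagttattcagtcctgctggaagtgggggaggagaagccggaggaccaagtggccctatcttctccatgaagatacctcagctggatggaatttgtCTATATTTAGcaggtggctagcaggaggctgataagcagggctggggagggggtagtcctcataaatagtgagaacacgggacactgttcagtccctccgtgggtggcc
Xirp2 promoter, chr3:72533936-72534185 (+ strand): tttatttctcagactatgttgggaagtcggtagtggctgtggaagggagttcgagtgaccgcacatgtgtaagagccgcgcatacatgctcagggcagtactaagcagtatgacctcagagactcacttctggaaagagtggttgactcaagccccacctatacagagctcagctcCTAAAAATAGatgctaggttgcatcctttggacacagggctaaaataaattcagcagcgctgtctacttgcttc
Gja1 promoter, chr20:36302314-36302563 (+ strand): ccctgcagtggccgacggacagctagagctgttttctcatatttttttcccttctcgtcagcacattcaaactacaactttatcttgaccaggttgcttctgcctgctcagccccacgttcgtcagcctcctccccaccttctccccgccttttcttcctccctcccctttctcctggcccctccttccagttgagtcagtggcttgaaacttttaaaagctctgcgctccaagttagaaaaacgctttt
The MEF2 site of Myoz2 lay 53 to 44 bases before the start, that of Mybpc3 109 to 100 and that of Xirp2 74 to 65 bases before it. Fhl2 held a CArG box at 95 to 86 bases, a CATTCC at 36 to 31 and a MEF2 site at 30 to 21 bases before the start, without overlap between the motifs.

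Among Z-disc members, Myoz2 fell most. It codes for calsarcin, which tethers the phosphatase calcineurin to α-actinin. Myoz2 stood at 32698, 28455 and 27372 normalized counts in con4, con5 and con6 and at 3255, 3008 and 2740.35 in ha2, ha209 and ha211. PH-CM ARVM thus held 10.2% of the freshly isolated level, a log2 fold change of −3.30 (SE 0.090, adjusted p = 1.05e-07 in limma).

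Ldb3 codes for ZASP, a PDZ and LIM domain protein that stabilizes the Z-disc during contraction. Its normalized counts were 5273, 5438 and 5707 in freshly isolated ARVM and 1226, 1182 and 978 in PH-CM ARVM, with ha211 the lowest. The log2 fold change was −2.28 (SE 0.090, adjusted p = 3.93e-07 in limma). Pdlim3, of the same family, codes for the actinin-associated LIM protein. Freshly isolated ARVM held 4358, 4840 and 5103 normalized counts of Pdlim3, and PH-CM ARVM held 1112, 951 and 909. The 3 PH-CM libraries lay far below the freshly isolated ones, and the log2 fold change was −2.27 (SE 0.093, adjusted p = 4.71e-07 in limma).

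The other Z-disc members fell by less, in an order with small steps. Csrp3, the muscle LIM protein, had a log2 fold change of −2.21 (SE 0.089), Fhl2, a LIM protein that binds titin, −1.97 (SE 0.065), and Actn2, the sarcomeric α-actinin that crosslinks the thin filaments, −1.95 (SE 0.11). Synpo2l, an actin-binding protein of the Z-disc, had −1.91 (SE 0.13), Ankrd1, a stress-responsive ankyrin repeat protein that shuttles to the nucleus, −1.87 (SE 0.19), and Flnc, the muscle filamin, −1.62 (SE 0.13). Fhl2, Actn2, Synpo2l and Ankrd1 lay closer together than the standard error of Ankrd1, and Nebl, which codes for the thin filament anchor nebulette, stood apart at −0.83 (SE 0.13). Normalized counts of Ankrd1 were 459905 ± 20921 (SD, n = 3) in freshly isolated cells and 126491 ± 17769 after PH-CM. This was a 3.64-fold fall, with all PH-CM libraries far below the freshly isolated ones.

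The M-band and thick filament members fell as a block, the methyltransferases less. Myom2, a myomesin of the M-band of fast and adult cardiac muscle, stood at 40059.8, 38724 and 39083 normalized counts in freshly isolated ARVM and at 7864, 6697 and 6761 in PH-CM ARVM. The PH-CM libraries lay far below all freshly isolated ones, for a log2 fold change of −2.47 (SE 0.078, adjusted p = 1.52e-07 in limma). Mybpc3, the cardiac myosin-binding protein C that controls crossbridge cycling, stood at 84400.4, 79079.8 and 80494 normalized counts before and at 16366, 14249 and 14273 after 7 days in PH-CM. PH-CM ARVM held 18.4% of its freshly isolated level, a log2 fold change of −2.44 (SE 0.086, adjusted p = 2.49e-07 in limma).

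Myom1, the myomesin present in all striated muscle, fell from 12216, 12003 and 11966 to 2868, 3718 and 2602 normalized counts. Freshly isolated libraries differed little, with a coefficient of variation of 1.12%, while ha209 stood above the other PH-CM libraries, for a coefficient of variation of 19.05%. Its log2 fold change was −1.99 (SE 0.12, adjusted p = 3.24e-06 in limma). Smyd1, a muscle methyltransferase needed for sarcomere assembly, had −1.45 (SE 0.13), and Smyd2, a methyltransferase that acts on a heat shock chaperone of titin, −0.87 (SE 0.068).

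At the thin filament pointed end, Lmod2 and Tmod1 code for proteins with opposed roles, the first elongating the filament and the second capping it. Lmod2 stood at 25885, 24728 and 25508 normalized counts in freshly isolated ARVM and at 5159.8, 6619 and 2552 in PH-CM ARVM. The PH-CM libraries differed widely among themselves, with a coefficient of variation of 43.1%, the largest of any member in either ARVM group. The log2 fold change of Lmod2 was −2.52 (SE 0.30, adjusted p = 0.000127 in limma), and −2.12 without ha211. Tmod1 fell from 5482, 5319 and 5462 to 2325, 2811 and 1916 normalized counts, again with ha209 highest and ha211 lowest. Its log2 fold change was −1.22 (SE 0.12, adjusted p = 5.23e-05 in limma).

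Intermediate filament and costamere members fell less, and vinculin rose. Synm, which codes for the desmin partner synemin, stood at 5202, 5518 and 5469 normalized counts in freshly isolated ARVM and at 1826, 2618 and 1656 in PH-CM ARVM. All PH-CM libraries were lower, with ha209 above the other 2, and the log2 fold change was −1.44 (SE 0.15, adjusted p = 6.77e-05 in limma). Sgca and Sgcd code for α- and δ-sarcoglycan of the membrane complex that binds dystrophin. Sgca went from 3235, 3354 and 3315 to 1287, 1259.63 and 1141 normalized counts, a log2 fold change of −1.43 (SE 0.064, adjusted p = 7.38e-07 in limma). Sgcd went from 614, 657 and 686 to 272, 253 and 268 normalized counts, a log2 fold change of −1.30 (SE 0.10, adjusted p = 1.29e-05 in limma). Both sarcoglycans had tight PH-CM groups, with coefficients of variation of 6.33% and 3.89%.

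Vcl, which couples integrins and cadherins to actin, was the only listed costamere member that rose. It stood at 4225, 4702 and 4746 normalized counts in freshly isolated ARVM and at 7172, 7347 and 7853 in PH-CM ARVM. Every PH-CM library lay above every freshly isolated one, a rise of 1.64-fold (log2 fold change 0.71, SE 0.067, adjusted p = 3.30e-05 in limma). Of the remaining members of this structure, the chaperone Cryab (αB-crystallin), which protects desmin, had a log2 fold change of −1.01 (SE 0.11). Des, the desmin of the filaments themselves, kept 67.0% of its freshly isolated level (log2 fold change −0.58, SE 0.12, adjusted p = 0.00199 in limma). Sgcb, β-sarcoglycan, had the smallest fall of any member, at −0.37 (SE 0.061, adjusted p = 0.000724 in limma).

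The intercalated disc held both the largest rise and the second largest fall of all listed members. Xirp2, an actin-binding repeat protein of the adhesion junctions, stood at 51283, 35541 and 34129 normalized counts in freshly isolated ARVM and at 6306, 9706 and 5249 in PH-CM ARVM. Library con4 was above the other freshly isolated libraries and ha209 above the other PH-CM libraries, and the log2 fold change was −2.53 (SE 0.24, adjusted p = 3.45e-05 in limma). Xirp2 and Lmod2 (−2.52, SE 0.30) lay closer together than either standard error, so their order is not settled. Jup, which codes for plakoglobin of the desmosome, went from 3596, 4676 and 5003 to 2532, 2489 and 2431 normalized counts. Here the freshly isolated group was wide and the PH-CM group narrow, and the log2 fold change was −0.82 (SE 0.12, adjusted p = 0.000300 in limma). Pkp2, the desmosomal plakophilin, had −0.54 (SE 0.082).

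Gja1 codes for connexin 43, the main gap junction protein of the ventricle. Its normalized counts were 4855, 5030.05 and 5227 in freshly isolated ARVM and 11235, 10192 and 11108 in PH-CM ARVM. Each PH-CM library thus held about the same raised level, 2.15-fold the freshly isolated mean (log2 fold change 1.11, SE 0.061, adjusted p = 2.04e-06 in limma). Dsc2, a desmosomal cadherin, went from 269, 205 and 213 to 371, 437 and 306 normalized counts. The lowest PH-CM library lay close above the highest freshly isolated one, and its log2 fold change was 0.69 (SE 0.18, adjusted p = 0.00687 in limma). Cdh2, the N-cadherin of the adherens junction, rose from 3308, 3135 and 3565 to 4539, 4589.87 and 4127 normalized counts (log2 fold change 0.41, SE 0.070, adjusted p = 0.000866 in limma). With the unequal-variance test, Jup and Dsc2 missed the threshold (adjusted p = 0.0527 and 0.0529).

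Within PH-CM, library ha211 was the lowest in 24 of the 30 members and in 29.4% of all listed genes. It was the lowest in 22 of the 26 members that fell and in 41.9% of the 3165 listed genes with a lower mean in PH-CM. ha209 was the highest in 16 of the 30 members, in 41.8% of the listed genes lower in PH-CM and in 32.0% of all listed genes. Of the 11 cardiomyocyte markers, ha211 was the lowest in 8, while ha2 was the highest in 7 and ha209 in 4. The order ha209, ha2, ha211 from highest to lowest occurred in 16 of 30 members (53.3%), in 4 of the 11 cardiomyocyte markers (36.4%), in 24.8% of the listed genes lower in PH-CM and in 17.3% of all listed genes. The summed cardiomyocyte markers were 192179, 174790 and 156128 normalized counts in ha2, ha209 and ha211. The fibroblast sums were 102154, 87479 and 130631 and the leukocyte sums 7146, 6300 and 9459 in the same libraries. ha211 thus had the lowest cardiomyocyte sum and the highest fibroblast and leukocyte sums, and the part of cell makeup in the order of the members was not tested. The median coefficient of variation of the members was 4.59% among freshly isolated libraries (9.74% over all listed genes) and 10.3% among PH-CM libraries (10.1% over all listed genes). Without ha211, the median log2 fold change of the members was −1.34, and all 30 remained called in the same direction.

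**Figure D3:**
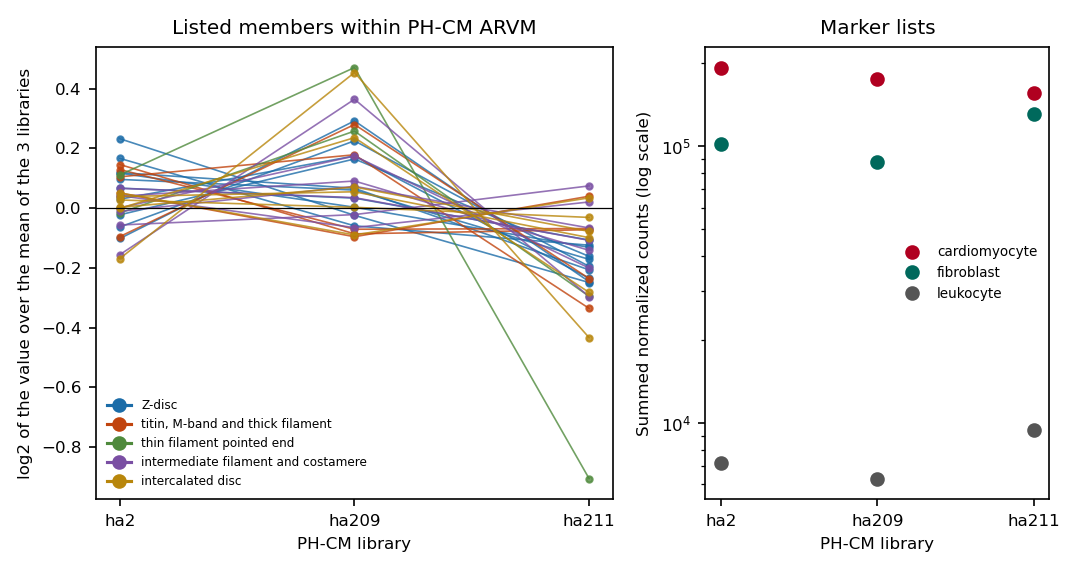
Left, log2 of each listed member's value over its mean in the 3 PH-CM libraries, with lines joining the values of 1 gene and colors for structure; right, summed normalized counts of 3 marker lists in the same libraries on a log axis. ha211 is the lowest library in 24 of the 30 members (and in 29.4% of all listed genes), has the lowest cardiomyocyte sum (156128) and has the highest fibroblast sum (130631).

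Set against the summed cardiomyocyte markers, nearly all members fell less. The markers themselves differed widely, with log2 fold changes from −6.62 for Mb, −5.58 for Myh6 and −5.44 for Myl2 to −2.38 for Tnnt2, −2.10 for Ryr2, −1.89 for Actc1 and −0.66 for Pln. Each of the last 4 fell by less than Myom2, Mybpc3, Lmod2 and Xirp2, so a member that fell less than the sum did not fall less than every marker. The log2 ratio of a member to the summed markers of its library was higher in PH-CM without overlap in 29 of the 30 members. That share was 97.3% over all listed genes and 94.0% over listed genes lower in PH-CM, so it does not set the members apart. The exception was Myoz2, whose ratio differed by 0.12 with overlapping groups. By structure, the median rise of the ratio was 1.46 for the Z-disc, 1.42 for the M-band and thick filament, 1.55 for the pointed end, 2.41 for the intermediate filament and costamere and 3.35 for the intercalated disc. All members of a library are divided by the same sum, so this order repeats that of the log2 fold changes and adds no separate result.

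Ratios of related genes within a library do not depend on its size factor, and 7 of 12 chosen pairs had both genes listed. For Actn2 over Actn1, the sarcomeric over the non-muscle α-actinin, the log2 ratio was 6.60 ± 0.122 (SD, n = 3) in freshly isolated cells and 2.65 ± 0.268 after PH-CM. The ratio of muscle to widespread filamin, Flnc over Flna, went from 3.04 ± 0.113 to −0.74 ± 0.523. For Des over Vim, the muscle over the mesenchymal intermediate filament, it went from 4.42 ± 0.0618 to 1.64 ± 0.379. Each of these ratios shifted toward the partner that many non-muscle cells express.

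The same held for the pair of cadherins and the pair of sarcoglycans. Cdh2 over Cdh11, the cadherin typical of mesenchymal cells, went from 6.40 ± 0.396 to 2.17 ± 0.518 on the log2 scale although Cdh2 itself rose. Sgca over the widespread Sgce went from 4.63 ± 0.179 to 1.20 ± 0.125. Myom1 over Myom2 rose by 0.48, from −1.70 ± 0.0123 to −1.23 ± 0.330, and Smyd1 over Smyd2 changed by −0.57, from −0.53 ± 0.143 to −1.11 ± 0.330. In Actn2 over Actn1, Flnc over Flna, Des over Vim and Sgca over Sgce, the genes of a pair moved in opposite directions. The authors had selected every listed gene for a difference between groups, and the groups overlapped in none of them. The ratios of these pairs thus could not overlap and are descriptions without a test. For the other 3 pairs, the exact two-sided permutation test gave p = 0.1 (adjusted p = 0.1), the smallest that 3 libraries against 3 allow, which misses the threshold. Fibroblast and leukocyte markers rose in the same libraries, and their part in these ratios was not tested.

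**Figure D4:**
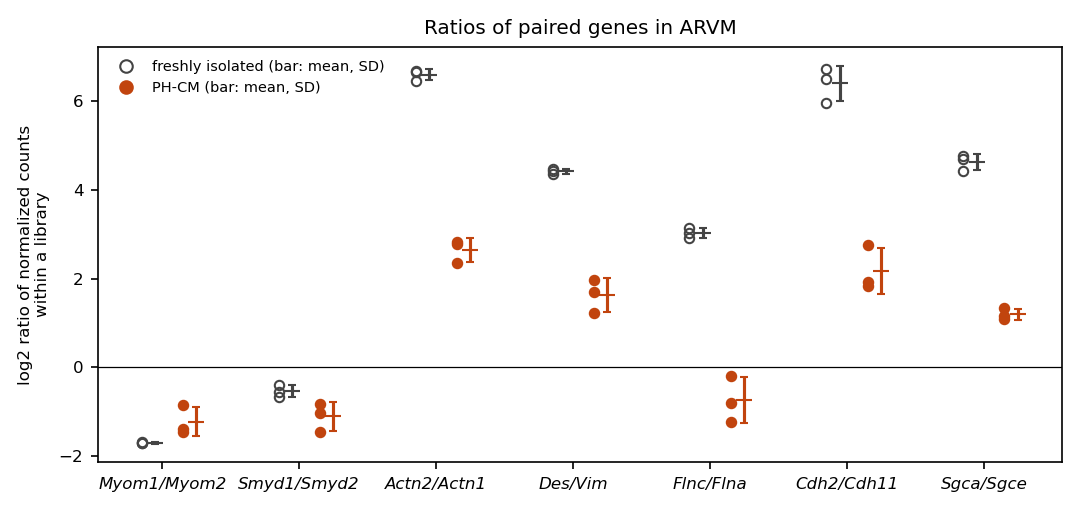
Log2 ratio of normalized counts of 7 gene pairs in each ARVM library, open for freshly isolated and filled for PH-CM, with bars for the mean and SD of 3 libraries. The ratio of Actn2 to Actn1 falls from 6.60 to 2.65 and that of Flnc to Flna from 3.04 to −0.74, while Myom1 to Myom2 is the only pair that rises.

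Other genes of these structures were followed from a list of 75 that are not members. For ARVM 48 were listed, and all passed the threshold, as did 97.6% of all listed genes. They held 20 rises and 28 falls, where 53.9% of all listed genes were called higher and 43.7% lower. Their median log2 fold change was −0.49. Other Z-disc and sarcomere genes split into 8 higher and 13 lower of 21 listed, and other costamere and membrane genes into 4 higher and 13 lower of 17. The 5 listed intercalated disc genes included 3 that rose and 2 that fell, and all 5 listed intermediate filament genes rose, with a median of 2.20. The largest falls were those of Ankrd2, a titin-binding relative of Ankrd1, of Itgb1bp2, the muscle integrin partner melusin, and of the LIM protein Fhl1. Ankrd2 stood at 127, 149 and 151 normalized counts in freshly isolated ARVM and at 5.29, 0 and 5.08 in PH-CM ARVM. Itgb1bp2 had a log2 fold change of −3.65 (SE 0.10) and Fhl1 one of −2.89 (SE 0.11).

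The largest rises were those of the epithelial keratins Krt18 and Krt8 and of Cdh11. Krt18 stood at 11.1, 0 and 10.3 normalized counts in freshly isolated ARVM and at 1125, 558 and 1165 in PH-CM ARVM. Krt8 stood at 7.91, 7.50 and 22.7 in freshly isolated ARVM and at 1439.87, 670.4 and 1367 in PH-CM ARVM. Both keratins were near 0 in every freshly isolated library and lower in ha209 than in the other PH-CM libraries. Cdh11 had a log2 fold change of 4.64 (SE 0.28). The related Z-disc gene Myoz1 had 4.26, from 0 in every freshly isolated library to 14.4, 12.9 and 32.2 normalized counts in ha2, ha209 and ha211. Its rank depends on the pseudocount of 1. With a pseudocount of 0.1 it had 7.51, above Krt8 (6.62) and Cdh11 (4.67) and below Krt18 (8.63). In edgeR it had 7.35, above Krt18 (7.09).

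In the Cfib table the values are an expression signal that accounts for gene length and library size, like FPKM or TPM, and its exact unit was not settled. Of the 38 members 9 were listed for Cfib, and 7 were higher and 2 lower in PH than in CO Cfib. The median log2 fold change of the 9 members was 0.92, against 0.33 over all listed genes. All 9 passed the threshold in limma, which 97.5% of the 2115 listed genes did, and 58.2% of listed genes were called higher and 39.4% lower. On the log2(value + 1) scale, calls of at least 2-fold were 4 higher (ANKRD1, PDLIM3, PDLIM5 and SGCD) and 0 lower, where 19.7% and 14.3% of listed genes were called. This scale holds low genes back, and the ratio of the means was 3.21-fold higher for DMD and 6.22-fold lower for DSG2. The groups did not overlap in any of the 9, as in 100% of the listed genes. None of the 11 cardiomyocyte markers and none of the 6 endothelial markers was listed for Cfib, and the 3 listed fibroblast markers, COL1A2, POSTN and TCF21, were higher in PH. Scaling the libraries by the median of ratios moved the fold changes of all listed Cfib genes, with a median shift of −0.27 on the log2 scale. This left 840 listed genes called higher and 869 lower, where 1230 and 833 had been. All 9 members kept their direction, and SGCB (0.29) and DSC2 (0.36) moved nearest to 0.

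CO 3 was the lowest CO library in 6 of the 9 members and in 45.5% of the listed genes. It was the highest in 2 of the 9, ANKRD1 and CRYAB, and in 33.9% of the listed genes. Among CO libraries the members had a median coefficient of variation of 29.6% (13.7% over all listed genes). Among PH libraries it was 4.42% (5.01% over all listed genes). Without CO 3, the log2 fold changes of the members were 2.73 for ANKRD1, 2.65 for PDLIM3, 0.83 for PDLIM5, 0.95 for SGCD, 0.75 for DMD, 0.56 for SGCB, 0.51 for DSC2, −0.66 for CRYAB and −0.92 for DSG2. All 9 kept their direction and their call.

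The Z-disc members listed for Cfib all rose. ANKRD1, which in non-muscle cells responds to stretch and stiffness, had a signal of 110, 78.9 and 145 in CO 1, 2 and 3 and of 652, 588 and 632 in PH 1, 2 and 3. Its level was 5.61-fold that of CO (log2 fold change 2.52, SE 0.21, adjusted p = 7.48e-05 in limma). PDLIM3 had 0.425, 0.186 and 0.400 in CO and 7.80, 7.12 and 6.65 in PH Cfib. The CO libraries were thus all below 1, and the log2 fold change of 2.62 (SE 0.11, adjusted p = 5.14e-06 in limma) depends on the pseudocount of 1, with a ratio of the means of 21.3-fold. PDLIM5, a relative that anchors protein kinases, had 10.6, 11.4 and 2.40 in CO and 21.0, 20.4 and 19.8 in PH Cfib. Its log2 fold change of 1.44 (SE 0.48, adjusted p = 0.0235 in limma) was 0.83 without CO 3, whose value lay far below those of CO 1 and CO 2, and the call was lost after scaling by the median of ratios (adjusted p = 0.0564) and without each PH library in turn (adjusted p from 0.0563 to 0.0624).

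**Figure D5:**
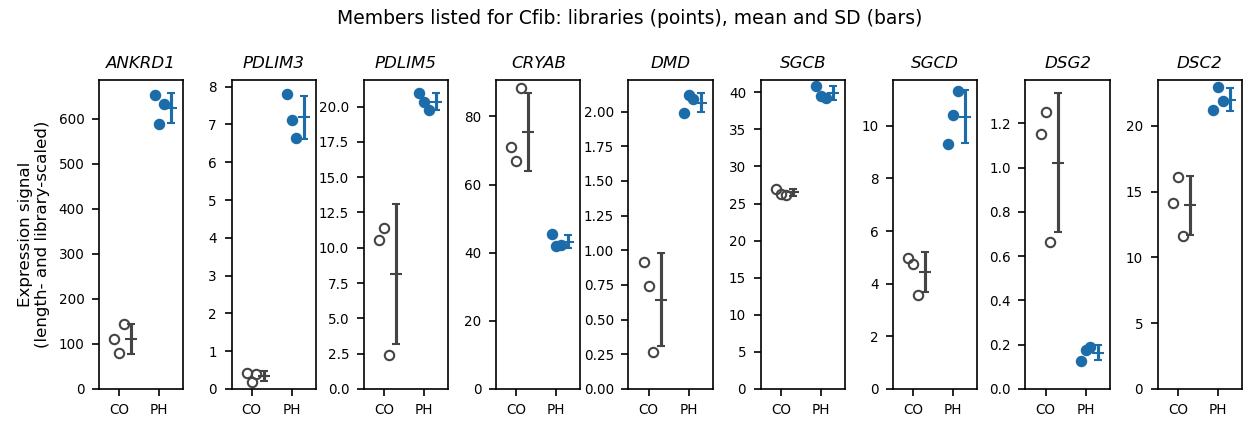
Expression signal of the 9 members listed for Cfib in each library, open for CO and filled for PH, with bars for the mean and SD of 3 libraries and a separate axis from 0 for each gene. CRYAB and DSG2 are lower in PH, and CO 3 (the third open circle) lies low for PDLIM5 (2.40) and DMD (0.269).

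At the costamere, the sarcoglycans and dystrophin rose and αB-crystallin fell. SGCD had a signal of 4.96, 4.77 and 3.56 in CO and of 9.31, 10.4 and 11.3 in PH Cfib (log2 fold change 1.07, SE 0.13, adjusted p = 0.000388 in limma). DMD, which codes for dystrophin, had 0.917, 0.743 and 0.269 in CO and 1.99, 2.12 and 2.09 in PH Cfib (log2 fold change 0.92, SE 0.16, adjusted p = 0.00156 in limma), and 0.75 without CO 3. For both, every PH library lay above every CO library. CRYAB had 70.9, 67.0 and 88.3 in CO and 45.4, 41.9 and 42.3 in PH Cfib (log2 fold change −0.78, SE 0.11, adjusted p = 0.000678 in limma). SGCB rose from 26.5 ± 0.451 (SD, n = 3) to 39.9 ± 0.884 (log2 fold change 0.57, SE 0.052).

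Of the desmosomal cadherins, one fell and one rose. DSG2, desmoglein 2, had a signal of 1.15, 1.25 and 0.664 in CO and of 0.127, 0.177 and 0.189 in PH Cfib. Its log2 fold change of −0.78 (SE 0.12, adjusted p = 0.00117 in limma) is held small by the pseudocount of 1, since the ratio of the means was 6.22-fold in the same direction. DSC2, desmocollin 2, had 14.1, 16.1 and 11.6 in CO and 21.2, 22.9 and 21.9 in PH Cfib (log2 fold change 0.63, SE 0.12, adjusted p = 0.00229 in limma). On this length-scaled signal DSC2 lay above DSG2 in every library.

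Of the 75 related genes 16 were listed for Cfib, and 12 rose and 4 fell, for a median log2 fold change of 0.69. Of all listed Cfib genes, 58.2% were called higher and 39.4% lower. CTNNA1, which codes for α-catenin, was among the 12, but its log2 fold change of 0.25 turned to −0.036 after scaling by the median of ratios (adjusted p = 0.607 in limma). KRT18 had a signal of 0.0518, 0 and 0 in CO and of 3.34, 5.83 and 5.49 in PH Cfib. KRT8 was listed at 0 in all CO libraries and had 1.24, 1.48 and 1.07 in PH Cfib. On the log2(value + 1) scale, FHL1 (log2 fold change 1.79, SE 0.054) and the membrane adaptor ANK3 (1.55, SE 0.19) followed KRT18, whereas a pseudocount of 0.1 put KRT8 second and ANK3 (2.05) above FHL1 (1.81). The gap junction gene GJA5, connexin 40, had the largest fall (−2.05, SE 0.20). PDLIM1 (−0.67, SE 0.066) and the actin capping subunit CAPZB (−0.24, SE 0.065) fell by less.

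The 6 members listed in both experiments can be set side by side, without a test, since species, units and treatment differ. Ankrd1 had a log2 fold change of −1.87 in ARVM and 2.52 in Cfib, Pdlim3 had −2.27 and 2.62, and Sgcd had −1.30 and 1.07. Sgcb had −0.37 in ARVM and 0.57 in Cfib. Cryab was lower in both, at −1.01 and −0.78, and Dsc2 was higher in both, at 0.69 and 0.63.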

How the data were processed

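RNA sequencing of 12 libraries, 3 per group, was analysed. Per the labels and the methods of the study, RNA was depleted of ribosomal RNA, and rat reads were aligned to rn6 and bovine reads to bosTau8 with HISAT2 and StringTie. The deposited ARVM signal was made by the authors as read counts divided by a DESeq2 size factor per library. The reads were recovered from the steps between values, of which 100% were whole within 0.01 reads in every library. The deposited Cfib signal is scaled by length and library, and its depth is unknown. Only genes selected by the authors for a difference between groups are listed, so adjusted p-values rest on selected genes.

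Groups were compared by limma 3.58.1 in R 4.3.3 on log2(value + 1), eBayes with a trend, with Benjamini-Hochberg adjustment over all listed genes and a threshold of 0.05. Fold changes on this scale understate low genes. Recovered reads were also tested with edgeR 4.0.16 and DESeq2 1.42.0. Pair ratios were tested by exact permutation in Python 3.11.15. Scripts were tested on simulated data. Members, gene lists, pairs and markers were chosen with earlier results of these data known. Values of each library are given for up to 3 members per structure with the largest change and for members opposite to their structure. They are also given for up to 3 related genes per direction, and for Dsc2, Cdh2, Ankrd1, Sgcb and Myoz1 as values or means beyond that rule. Promoters come from RefSeq (GRCr8). Replicate numbers 1 to 3 occur in both Cfib groups, but neither the labels nor the methods pair them.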

Additional observations from a re-analysis of the deposited data

How the results depend on the processing

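With a log2 fold change of at least 1 required, the ARVM members counted 1 higher and 20 lower, the intermediate filament and costamere 0 higher, and the intercalated disc 1 higher and 1 lower. Related genes then counted 13 higher and 16 lower in ARVM and 6 higher and 1 lower in Cfib, and Cfib members 4 higher and 0 lower. A minimum mean of 5 left 5 Cfib members called higher and 1 lower, since PDLIM3, DMD and DSG2 lie below it and were not tested. The median log2 fold change of Cfib members was 0.76 with scaling by the median of ratios, 1.22 with a pseudocount of 0.1 and 0.45 with a pseudocount of 10. With each library left out in turn it ran from 0.75 (without CO 3) to 1.04 (without CO 1), and that of ARVM members from −1.59 (without ha209) to −1.34 (without ha211). PDLIM3 at a pseudocount of 0.1 had a log2 fold change of 4.11, DMD 1.67 and DSG2 −2.05. No member changed direction under the alternatives run. Apart from the fold minimum and the minimum mean, members lost their call only for Jup and Dsc2 (unequal-variance test) and PDLIM5 (median of ratios, and each PH library left out), where the cause was not tested. The unequal-variance test, edgeR and DESeq2 were run for ARVM only, so no Cfib member was put to them. Among the related genes, CTNNA1 turned from 0.25 to −0.036 with the median of ratios.

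The block for replicate number left 7 Cfib members higher and 2 lower and changed no member call (related genes called lower went from 4 to 3). Deviations of equally numbered libraries correlated at 0.258, 0.0312 and 0.259. Each PH library correlated best with the CO library of its own number, whereas CO 2 correlated better with PH 1 (0.102) than with PH 2. Deviations from a mean of only 3 libraries cannot decide whether the numbers pair the samples. No paired analysis was possible for ARVM because its groups share no replicate number. Depth of the Cfib libraries is unknown, and 3 libraries per group cannot give an exact two-sided p under 0.1.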
